A study of Mus musculus with 3 samples.

Results

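The genes described here make cholesterol and fatty acids. The list held 41 mouse genes, 21 of the sterol branch and 20 of the fatty acid branch, listed by name. Of these, 32 were found by current or older symbol among the gene names of the array annotation, on 46 probes, 18 in the sterol and 14 in the fatty acid branch. Pmvk, Idi1, Srebf1, Acaca, Acss2, Thrsp, Elovl1, Elovl5 and Acsl1 were not found by this rule, so of the 2 genes of the SREBP transcription factors only Srebf2 was measured. Tm7sf2, a sterol reductase gene, had a log2 ratio of 0.50 in culture 1 and none in the other cultures, where 1 of the paired spots was marked an outlier by the scanner software, and it was not tested. That left 31 tested members, 17 in the sterol and 14 in the fatty acid branch, among 17582 tested features of the array.

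RNA was measured in ovarian surface epithelium, the cell layer covering the ovary, from virgin female C57/Bl6 mice that had been superovulated with PMSG and hCG and mated. Primary cells were freed with collagenase and dispase followed by trypsin, and 3 cultures were each divided. The mesenchymal part had been held for 1 week in 15% fetal bovine serum, while the epithelial part was kept in 2.5% serum, and both were collected at 80% confluence. Amplified RNA made from 4 µg of total RNA was hybridised to 2-colour Agilent arrays, both RNAs of a culture together, on 2 arrays with the dyes exchanged, 6 arrays in all. Serum concentration and phenotype moved together in every culture and cannot be told apart. Both parts came from hormone-treated, mated mice, and the labels do not say how many animals were pooled in a culture.

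Cholesterol is built from acetyl-CoA through mevalonate, farnesyl pyrophosphate, squalene and lanosterol, and fatty acids are built from acetyl-CoA and malonyl-CoA and then desaturated, elongated and put into glycerolipids. The SREBP transcription factors switch on both branches. INSIG proteins hold them, bound to SCAP, in the endoplasmic reticulum when sterols are plentiful, and when sterols are scarce they are released, cleaved and moved to the nucleus. In the ovary, cholesterol is also the raw material of steroid hormones, which granulosa, theca and luteal cells make.

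Each value below is a log2 ratio, mesenchymal over epithelial, so a negative one means less RNA in mesenchymal cells. Each array was normalised within itself, the 2 arrays of a culture were averaged, and means are given ± SD over cultures (n = 3 cultures unless stated). A gene was called where the Benjamini-Hochberg adjusted p from limma over all 17582 features was under 0.05. The number of arrays limits the precision. Where mesenchymal RNA carried the same dye, arrays correlated at 0.81 to 0.93 over features once turned to mesenchymal over epithelial, but arrays of opposite dye orientation correlated at -0.50 to -0.10, and 70.2% of features had a dye effect exceeding their change. The direction of every ratio rests on the dyes given in the array names, as the labels give each RNA both dyes. In bulk RNA, fewer cells of a type and less RNA per cell cannot be told apart.

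Promoters of 4 of the called genes are shown because SREBPs act at such sequences together with the factors NF-Y and Sp1. Hmgcs1 and Srebf2 stand for the sterol branch, Fads2 for the fatty acid branch, and Ebp for the genes that went the other way. Each is 300 bases long, 250 before and 50 after the start of the gene, read 5′ to 3′ on the gene's strand from the RefSeq promoters of build GRCm38.p6. Hmgcs1 is at chr13:119690101-119690400 on the + strand, Srebf2 at chr15:82147019-82147318 on the + strand, Fads2 at chr19:10101454-10101753 on the - strand and Ebp at chrX:8193463-8193762 on the - strand. Capitals mark matches on either strand to a sterol response element-like motif (TCACNCCAC), the CCAAT box of NF-Y (CCAAT, read ATTGG on the other strand) and the GC box of Sp1 (GGGCGG, read CCGCCC on the other strand).
Hmgcs1: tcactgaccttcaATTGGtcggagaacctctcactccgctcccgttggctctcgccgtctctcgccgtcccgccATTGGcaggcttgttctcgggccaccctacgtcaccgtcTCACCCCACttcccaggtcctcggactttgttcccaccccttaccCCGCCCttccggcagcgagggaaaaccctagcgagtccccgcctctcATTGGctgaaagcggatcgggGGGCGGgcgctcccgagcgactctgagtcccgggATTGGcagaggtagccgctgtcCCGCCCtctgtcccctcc
Srebf2: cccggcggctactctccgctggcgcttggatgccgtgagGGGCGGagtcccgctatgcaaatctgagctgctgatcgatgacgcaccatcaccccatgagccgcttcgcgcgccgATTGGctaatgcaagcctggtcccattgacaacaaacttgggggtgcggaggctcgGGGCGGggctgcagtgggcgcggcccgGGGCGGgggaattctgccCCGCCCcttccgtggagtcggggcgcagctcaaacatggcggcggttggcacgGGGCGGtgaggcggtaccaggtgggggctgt
Fads2: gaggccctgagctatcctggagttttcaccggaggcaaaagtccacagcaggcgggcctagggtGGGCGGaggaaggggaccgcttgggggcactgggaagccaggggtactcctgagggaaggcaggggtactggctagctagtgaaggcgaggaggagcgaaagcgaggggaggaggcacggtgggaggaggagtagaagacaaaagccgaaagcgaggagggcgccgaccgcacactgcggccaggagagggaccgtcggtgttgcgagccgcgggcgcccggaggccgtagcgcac
Ebp: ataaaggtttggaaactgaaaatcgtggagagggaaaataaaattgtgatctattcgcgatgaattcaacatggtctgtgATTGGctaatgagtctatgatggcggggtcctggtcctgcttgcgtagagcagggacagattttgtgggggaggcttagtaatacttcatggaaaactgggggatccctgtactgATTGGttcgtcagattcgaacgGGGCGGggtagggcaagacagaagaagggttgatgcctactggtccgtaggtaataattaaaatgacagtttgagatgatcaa

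Of the 31 tested members, 22 had a promoter in that table, 26 promoters in all since some genes have several. The sterol response element-like motif was in 1 of them, that of Hmgcs1, and in 1.19% of the 21263 promoters of protein-coding genes. The CCAAT box was in 19 of the 26 (73.1%), against 38.2% of all promoters, and the GC box in 21 (80.8%), against 46.2%. Of the 8 called genes with a promoter, 7 held a CCAAT box and 8 a GC box, and of the 14 uncalled genes 12 held each. A match is a description of the letters, and a missing match says only that they are not in this window.

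In mesenchymal cells, 9 of the 31 tested members were lower, 2 were higher and 20 did not pass the threshold. The called members were thus 35.5%, where 11.9% of all features were called, 5.92% lower and 5.96% higher. The sterol branch had 6 of 17 lower (35.3%) and 1 higher, and the fatty acid branch 3 of 14 lower (21.4%) and 1 higher. Srebf2, the gene of the transcription factor SREBP2, fell by 0.58 ± 0.056 on its tested probe, while its second probe gave -0.28 ± 0.24. Fads2, the desaturase gene that starts the synthesis of long polyunsaturated fatty acids, fell by 0.82 ± 0.066. Ebp, a sterol isomerase gene, rose by 0.74 ± 0.31. No called member changed 2-fold.

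The members as a group lay slightly below the array. Their median log2 ratio was -0.17, at -0.15 in the sterol and -0.20 in the fatty acid branch, against -0.0030 over all features. Of the 31, 25 were below 0 (80.6%, against 50.9% of all features), and 18 were below 0 in all 3 cultures (58.1%, against 19.7%). The 19.7% is a low estimate, as the 2105 features measured in 2 cultures could not count towards it, while all 31 members had 3. The 25 include Fdps, Msmo1 and Scd2, whose spots were saturated on most arrays, and Fdps is also among the 18. The median member was at -0.17, -0.22 and -0.27 in cultures 1, 2 and 3. Spread between cultures was uneven. Srebf2, Fads2, Dgat2 and Me1, among others, had SDs under 0.1, while Scarb1, Lss, Mvk and Ebp had SDs over 0.3.

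**Figure D1:**
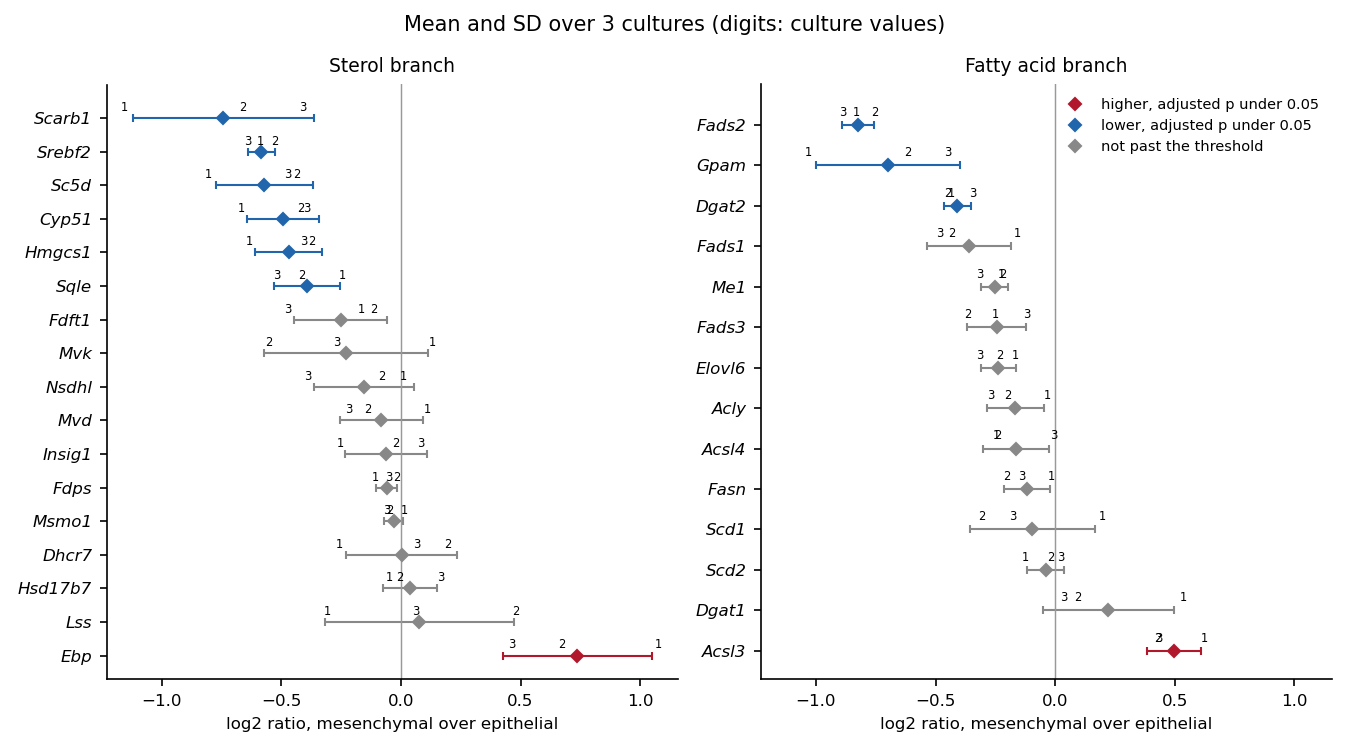
Log2 ratio of mesenchymal over epithelial RNA (x axis) of each tested member, sterol branch left and fatty acid branch right. Digits are the values of cultures 1 to 3, diamonds the mean, bars the SD; blue members were lower, red ones higher and grey ones not past the threshold. Most members lie left of 0, and Ebp and Acsl3 are the 2 called to its right.

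Which members were called depended on the cultures in the fit, while the 11 called members kept their direction whichever culture was left out. Without culture 3, Ebp, Scarb1, Fads2 and Gpam remained called, 4 of the 11, while 4.92% of features were called, and the values of the other 7 are given with each gene below. Without culture 2, 9 of the 11 remained (7.24% of features), with Sqle at -0.38 and Dgat2 at -0.39 no longer called. Without culture 1 all 11 remained and 10 more were called, 9 of them lower, but 32.2% of all features were called then too. Ebp, Scarb1, Fads2 and Gpam were called in each of these fits.

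Among the regulators and the uptake gene, the tested Srebf2 probe was lower on every array. Its log2 ratios were -0.70, -0.85 and -1.16 for cultures 1, 2 and 3 with mesenchymal RNA in Cy5, and -0.48, -0.21 and -0.12 with it in Cy3. Averaged per culture they were -0.59, -0.53 and -0.64, a mean of -0.58 ± 0.056 (adjusted p = 0.00412) or 1.5-fold lower. The probe's log2 intensity was 14.37, 13.84 and 11.38 in mesenchymal RNA, against 14.96, 14.37 and 12.02 in epithelial RNA. Brightness therefore differed far more between cultures than within one, although the arrays had been scaled to each other. The groups overlapped while every pair went down. A second Srebf2 probe, nearly as bright, gave -0.28 ± 0.24, with -0.0025, -0.38 and -0.45 in cultures 1, 2 and 3. It was above 0 on 1 array, at 0.33 in culture 1 with mesenchymal RNA in Cy5. Its log2 intensity was steadier, 13.50, 13.19 and 13.05 in mesenchymal RNA and 13.50, 13.57 and 13.50 in epithelial RNA. Without culture 3 the call of the tested probe ended, at -0.56.

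Insig1, whose protein holds SREBPs back and which is itself an SREBP target, was not called. It had log2 ratios of -1.06, -1.24 and -1.16 in the Cy5 orientation and 0.56, 1.20 and 1.32 in the Cy3 orientation. The orientations thus lay on opposite sides of 0 in every culture, and the averages of -0.25, -0.020 and 0.081 left a mean of -0.064 ± 0.17 (adjusted p = 0.770).

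Scarb1, which encodes the HDL receptor through which cells take up cholesteryl esters, fell by 0.74 ± 0.38 (adjusted p = 0.0220), 1.67-fold lower. It read -1.92, -1.65 and -1.23 with mesenchymal RNA in Cy5 and -0.39, 0.33 and 0.41 with it in Cy3. The cultures gave -1.16, -0.66 and -0.41, so culture 1 showed the deepest value. Log2 intensities were 11.88, 11.98 and 11.66 in mesenchymal RNA, against 13.04, 12.64 and 12.07 in epithelial RNA, and the groups did not overlap.

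**Figure D2:**
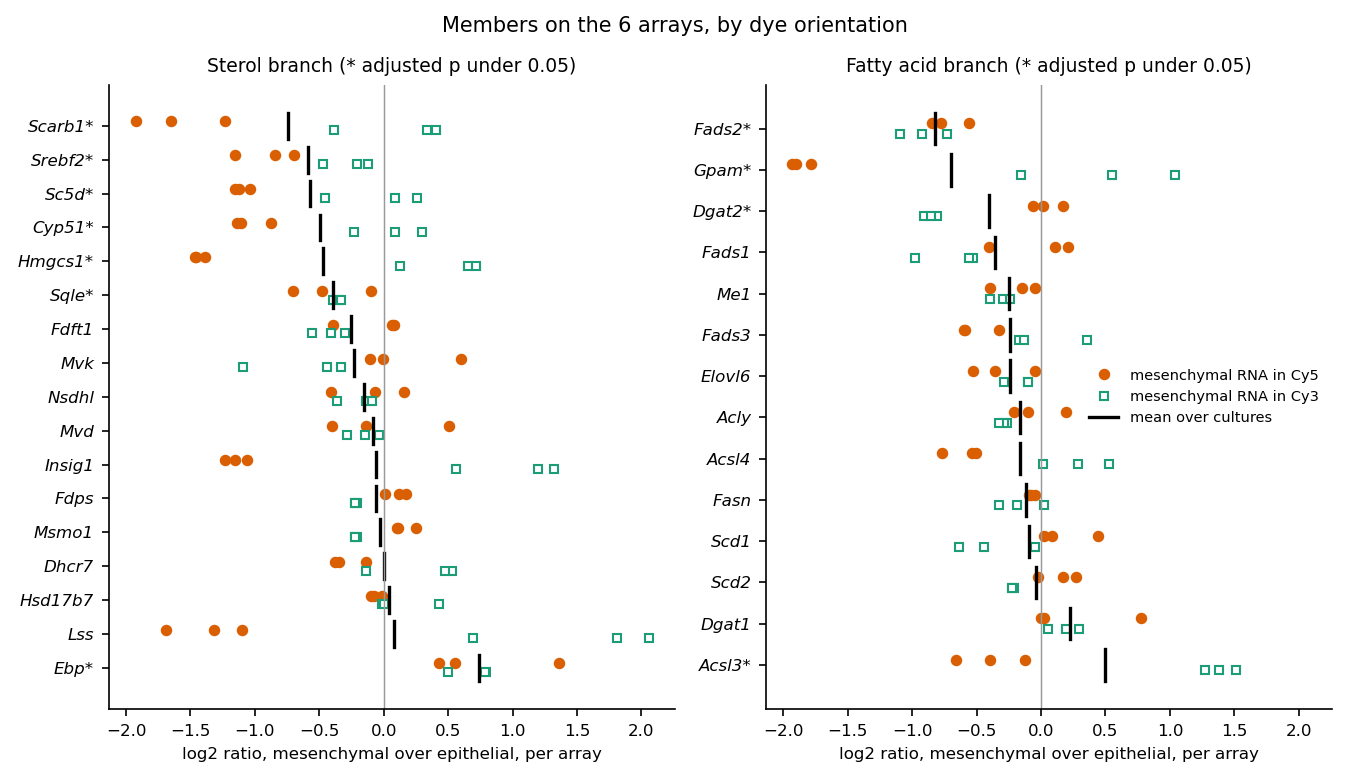
Log2 ratio of mesenchymal over epithelial RNA on each of the 6 arrays (x axis) for each tested member, sterol branch left and fatty acid branch right. Filled circles are arrays with mesenchymal RNA in Cy5, open squares those with it in Cy3, black bars the mean over cultures, and asterisks mark called members. The tested probes of Fads2, Srebf2, Sqle and Ebp keep 1 side of 0 on all 6 arrays, whereas the 2 orientations of Lss, Insig1, Hmgcs1, Gpam and Acsl3 lie far apart.

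Of the mevalonate steps, Hmgcs1, the HMG-CoA synthase at the head of the pathway, was the only one called. It read -1.39, -1.46 and -1.46 in the Cy5 orientation and 0.13, 0.71 and 0.65 in the Cy3 orientation. Per culture this came to -0.63, -0.37 and -0.41, a fall of 0.47 ± 0.14 (adjusted p = 0.0161) or 1.39-fold. Its sign thus turned with the dye, and its dye effect, -0.97 as log2 Cy5 over Cy3, was larger than its change. Log2 intensities were 14.33, 14.22 and 13.94 in mesenchymal RNA, against 14.96, 14.59 and 14.34 in epithelial RNA. The groups nearly touched but did not overlap. Without culture 3 the call ended, at -0.50. The annotation supplied with 1 array does not give this probe the name Hmgcs1, and the name in the other annotation was kept by the rule of membership.

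The next enzymes did not pass. Mvk, the mevalonate kinase, was at 0.13, -0.55 and -0.27 in cultures 1, 2 and 3, and Mvd, which decarboxylates mevalonate pyrophosphate, at 0.11, -0.14 and -0.22. Both were above 0 in culture 1 and below 0 in the other cultures. Fdps, the farnesyl pyrophosphate synthase, was at -0.059 ± 0.044, but its spot was saturated for mesenchymal RNA on 4 and for epithelial RNA on 5 of 6 arrays, and a ratio of saturated spots cannot show a change.

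Between farnesyl pyrophosphate and lanosterol, the tested probe of Sqle, the squalene epoxidase and a rate-limiting step, was lower on all 6 arrays. Log2 ratios were -0.096, -0.48 and -0.70 with mesenchymal RNA in Cy5 and -0.40, -0.35 and -0.33 with it in Cy3, or -0.25, -0.41 and -0.52 per culture. That is a fall of 0.39 ± 0.14 (adjusted p = 0.0284), 1.31-fold, with a dye effect of only -0.034. Log2 intensities of 15.08, 14.65 and 15.11 in mesenchymal RNA, against 15.33, 15.07 and 15.63 in epithelial RNA, overlapped between groups. The call ended without culture 3 (-0.33) and when a gene's probes were averaged (-0.19), since 3 dimmer Sqle probes gave 0.010, -0.15 and -0.23. In each of these 3, the mean was below 0 in the Cy5 orientation and above 0 in the Cy3 orientation. Fdft1, the squalene synthase, was at -0.17, -0.12 and -0.47 and did not pass (adjusted p = 0.161). Lss, which closes the ring to lanosterol, was at 0.077 ± 0.39, with values per array from -1.69 to 2.06 that followed the dye.

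From lanosterol to cholesterol, 3 of 7 tested genes were called, 2 lower and 1 higher. Cyp51, the lanosterol demethylase, read -1.10, -1.14 and -0.88 in the Cy5 orientation and -0.23, 0.30 and 0.088 in the Cy3 orientation, or -0.67, -0.42 and -0.39 per culture. It fell by 0.49 ± 0.15 (adjusted p = 0.0147), 1.41-fold. Its log2 intensities, 14.21, 14.46 and 14.30 in mesenchymal RNA against 14.88, 14.88 and 14.69 in epithelial RNA, did not overlap between groups. A second Cyp51 probe gave -0.47 ± 0.062, nearly the same change. Without culture 3 the Cyp51 call ended, at -0.54.

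Sc5d, a sterol desaturase acting late in the pathway, had log2 ratios of -1.15, -1.13 and -1.04 with mesenchymal RNA in Cy5 and -0.46, 0.26 and 0.088 with it in Cy3. The cultures gave -0.81, -0.44 and -0.47, a fall of 0.57 ± 0.20 (adjusted p = 0.0136) or 1.49-fold. Sc5d and Cyp51 shared a shape, with culture 1 deepest and the Cy5 arrays below the Cy3 arrays. The called members Hmgcs1, Scarb1 and Gpam had this shape too, as did uncalled members such as Insig1. Log2 intensities of Sc5d were 12.56, 12.50 and 12.13 in mesenchymal RNA, against 13.37, 12.94 and 12.61 in epithelial RNA, without overlap. The Sc5d call also ended without culture 3, at -0.62.

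Ebp, the sterol isomerase that acts between these enzymes, went the other way on all 6 arrays. It read 1.36, 0.56 and 0.43 in the Cy5 orientation and 0.79, 0.79 and 0.50 in the Cy3 orientation, or 1.08, 0.67 and 0.46 per culture. It rose by 0.74 ± 0.31 (adjusted p = 0.0138), 1.67-fold, with a dye effect of 0.045. The log2 intensity was 14.26, 13.50 and 10.93 in mesenchymal RNA, against 13.18, 12.83 and 10.47 in epithelial RNA. Culture 3 was the dimmest in both RNAs, so the groups overlapped although each pair went up.

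The other genes of this stretch stayed near 0. Nsdhl, a sterol dehydrogenase, was at -0.15 ± 0.21, Hsd17b7, a sterol ketone reductase, at 0.038 ± 0.11 and Dhcr7, which makes cholesterol from its direct precursor, at 0.0024 ± 0.23. Msmo1, a sterol methyl oxidase, was at -0.031 ± 0.039, but like Fdps it was saturated for mesenchymal RNA on 4 and for epithelial RNA on 5 arrays. Adjusted p was at least 0.437 for these 4.

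In the fatty acid branch, none of the 3 tested genes of carbon supply and chain synthesis was called. Fasn, the fatty acid synthase, read -0.051, -0.080 and -0.095 with mesenchymal RNA in Cy5 and 0.023, -0.32 and -0.19 with it in Cy3, or -0.014, -0.20 and -0.14 per culture. Its mean was -0.12 ± 0.096 (adjusted p = 0.431). The other Fasn probe, slightly dimmer, read -1.06, -1.52 and -1.47 in the Cy5 orientation and -1.70, -1.75 and -1.19 in the Cy3 orientation, a mean of -1.45 ± 0.16. It was thus below 0 on all 6 arrays while the brighter one stayed close to 0, and the average of the 2 probes, -0.78, was called. Which of them follows Fasn RNA was not tested, and the array files give no probe sequences to place them on the gene.

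Acly, which makes cytosolic acetyl-CoA from citrate, was at -0.033, -0.20 and -0.27 in cultures 1, 2 and 3 (adjusted p = 0.279). Me1, the malic enzyme that supplies NADPH, was below 0 on all 6 arrays at -0.25 ± 0.056 but did not pass (adjusted p = 0.0730).

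All 5 desaturases were measured, and Fads2 had the lowest adjusted p among the members. It read -0.56, -0.78 and -0.85 in the Cy5 orientation and -1.10, -0.73 and -0.93 in the Cy3 orientation, or -0.83, -0.75 and -0.89 per culture. It fell by 0.82 ± 0.066 (adjusted p = 0.00129), 1.77-fold, with a dye effect of 0.096. Log2 intensities were 13.32, 13.16 and 12.35 in mesenchymal RNA, against 14.14, 13.91 and 13.24 in epithelial RNA. All 6 arrays agreed in sign, and the groups overlapped only across cultures.

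Fads1 and Fads3 lie beside Fads2 on chromosome 19, with no coding gene between. Fads1, which acts after Fads2 on the same fatty acids, was at -0.16, -0.43 and -0.48 in cultures 1, 2 and 3, a mean of -0.36 ± 0.17 just outside the threshold (adjusted p = 0.0517). Its spot was saturated for epithelial RNA on 5 arrays and for mesenchymal RNA on 1, which makes a fall look smaller. Fads1 was called without culture 1, at -0.46, and also with processed signals, median centring, outlier-flagged spots kept, trend and robust variance or the authors' value table. Fads3 was at -0.25, -0.36 and -0.12 (adjusted p = 0.112). All 3 genes of the cluster were below 0 in every culture.

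The stearoyl-CoA desaturases, which make monounsaturated fatty acids, were not called. Scd1 read 0.44, 0.026 and 0.088 with mesenchymal RNA in Cy5 and -0.047, -0.64 and -0.44 with it in Cy3, or 0.20, -0.31 and -0.18 per culture (mean -0.095 ± 0.26, adjusted p = 0.713). Cultures thus disagreed in sign. Scd2 read -0.025, 0.17 and 0.27 in the Cy5 orientation and -0.22, -0.21 and -0.22 in the Cy3 orientation, or -0.12, -0.019 and 0.023 per culture. Its spot was saturated in both RNAs on all 6 arrays, so these numbers show no fold, and the Cy3 values equal those of the saturated Fdps and Msmo1 to 2 decimals. A much dimmer Scd2 probe gave 0.022 ± 0.0042. Elovl6, the elongase of saturated chains, was below 0 on all 6 arrays at -0.24 ± 0.073 (adjusted p = 0.0925), and its second probe gave -0.12 ± 0.31.

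Acyl-CoA synthetases activate fatty acids for further use. Acsl3 read -0.13, -0.66 and -0.40 with mesenchymal RNA in Cy5 and 1.38, 1.51 and 1.27 with it in Cy3. The orientations had opposite signs in each culture, and their averages were 0.63, 0.43 and 0.43. On that average Acsl3 rose by 0.50 ± 0.11 (adjusted p = 0.0105), 1.41-fold, beside a dye effect of -0.89. Both dimmer Acsl3 probes gave 0.18, with SDs of 0.013 and 0.10. Log2 intensities were 11.98, 11.39 and 10.75 in mesenchymal RNA, against 11.35, 10.96 and 10.32 in epithelial RNA, and overlapped between groups. Without culture 3 the call ended, at 0.53. Acsl4, which prefers polyunsaturated fatty acids, was at -0.25, -0.24 and -0.0049 and did not pass (adjusted p = 0.309).

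In glycerolipid synthesis, Gpam and Dgat2 were lower and Dgat1 was not called. Gpam, the mitochondrial glycerol phosphate acyltransferase, read -1.90, -1.78 and -1.94 in the Cy5 orientation and -0.16, 0.55 and 1.04 in the Cy3 orientation. The cultures gave -1.03, -0.62 and -0.45, a fall of 0.70 ± 0.30 (adjusted p = 0.0154) or 1.62-fold, with a dye effect of -1.18. Gpam is thus a member whose arrays disagreed in sign in cultures 2 and 3. Its log2 intensities of 12.43, 12.56 and 12.05 in mesenchymal RNA, against 13.46, 13.18 and 12.50 in epithelial RNA, overlapped slightly.

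Dgat2, an acyltransferase of the final step, read -0.061, 0.016 and 0.17 with mesenchymal RNA in Cy5 and -0.81, -0.91 and -0.86 with it in Cy3, or -0.43, -0.45 and -0.34 per culture. It fell by 0.41 ± 0.057 (adjusted p = 0.0150), 1.33-fold. Here the fall was seen in the Cy3 orientation, and the Cy5 arrays were near 0, the reverse of Gpam. Log2 intensities were 10.68, 10.64 and 10.74 in mesenchymal RNA, against 11.11, 11.09 and 11.08 in epithelial RNA, and did not overlap. The Dgat2 call ended without culture 3, at -0.44. Dgat1, the other enzyme of that step, was at 0.54, 0.097 and 0.036 (adjusted p = 0.318). The difference between Dgat1 and Dgat2 was not tested.

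Dye effects were common among the members. They passed the threshold for 20 of 31 members (64.5%), against 57.1% of all features. In 17 of the 31 it exceeded the change, against 70.2% of features. Among the 11 called members it passed for 8 and was larger than the change for 6, namely Hmgcs1, Cyp51, Scarb1, Acsl3, Gpam and Dgat2. It follows from this that in these same 6 the mean of the Cy5 arrays and the mean of the Cy3 arrays had opposite signs. The tested probes of Sqle, Srebf2, Ebp and Fads2 were called with 1 sign on all 6 arrays, 4 of 31, where 7.23% of features were. Other probes of Sqle and Srebf2 changed sign between arrays. Each culture's mean holds 1 array of each orientation, so a dye effect shared by its arrays cancels in that mean. A dye effect that differed in size between the 2 arrays would leave a remainder in the culture's value. Hmgcs1, Cyp51, Scarb1 and Gpam, with negative dye effects, were lowest in culture 1, while Acsl3, whose dye effect was also negative, was highest there. How much of the difference between cultures is such a remainder was not tested.

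**Figure D3:**
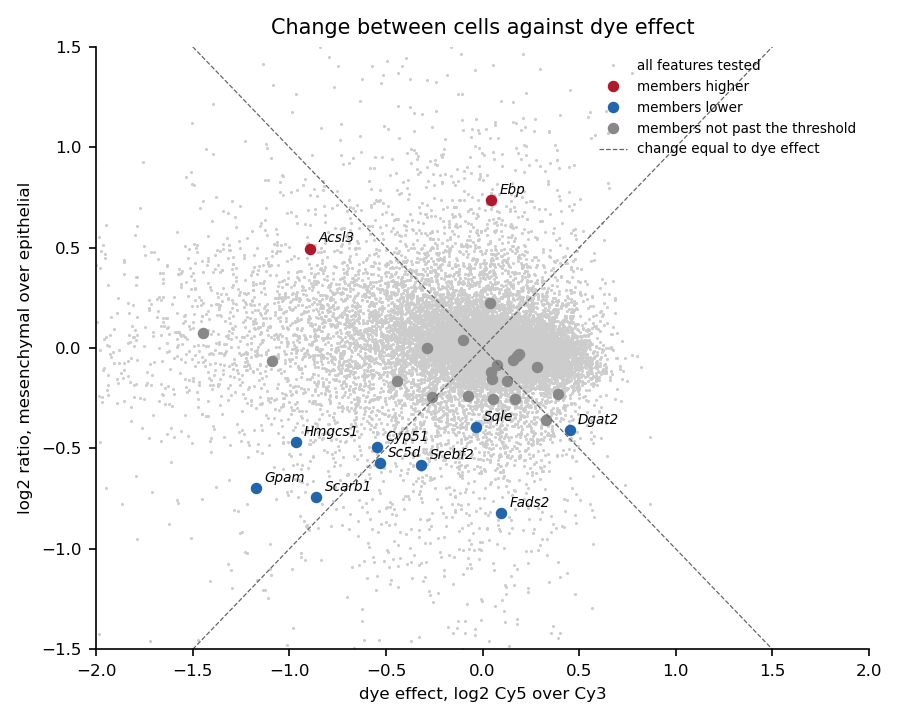
Log2 ratio of mesenchymal over epithelial RNA (y axis) against the dye effect as log2 Cy5 over Cy3 (x axis), both as means over 3 cultures. Small grey points are all tested features within the axis limits, large points the members, coloured by call, and dashed lines mark a change equal in size to the dye effect. Fads2, Ebp and Sqle lie close to a dye effect of 0, and Gpam, Hmgcs1, Acsl3 and Scarb1 far from it.

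Of the 32 members found, 11 had more than 1 probe, and the brightest usable one was tested. The probes of Cyp51 gave nearly 1 value, and those of Srebf2 and Acsl3 shared a sign. Those of Lss disagreed, at 0.077 ± 0.39 and -0.53 ± 0.48, as did those of Nsdhl, at -0.15 ± 0.21 and, from 2 cultures, 0.24 ± 0.18. Acsl4 gave -0.16 ± 0.14 and 0.083 ± 0.085, and Hsd17b7 gave 0.038 ± 0.11 and -0.075 ± 0.22. Brightness differs between probes of a gene, so only their ratios were set side by side.

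**Figure D4:**
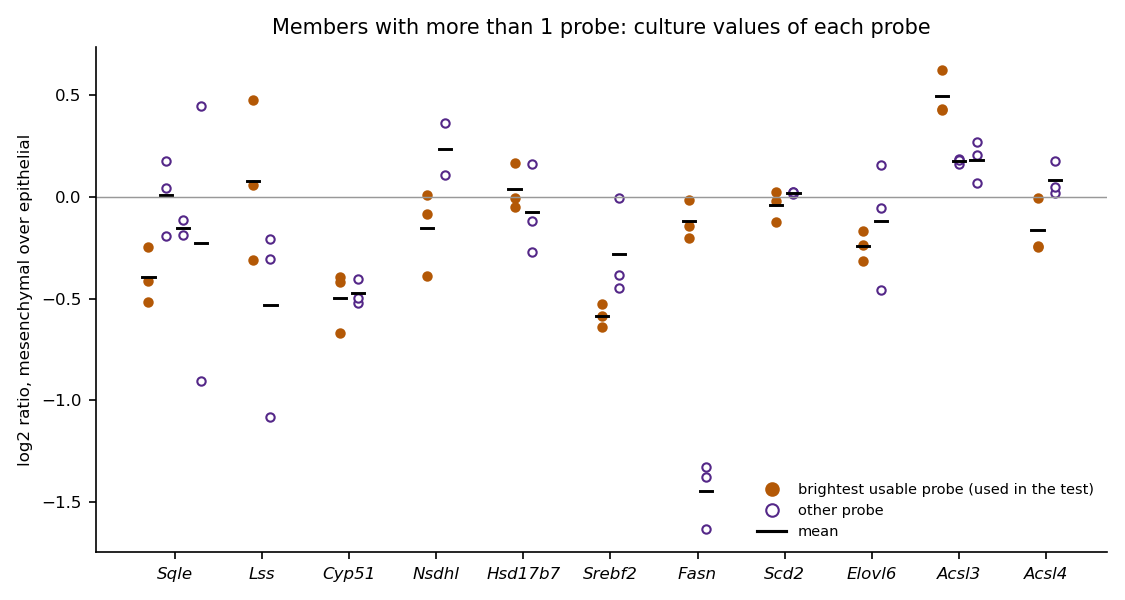
Log2 ratio of mesenchymal over epithelial RNA (y axis) per culture for every probe of the 11 members with more than 1 probe. Filled circles are the brightest usable probe, open circles the others, and black bars the mean over the cultures measured. The 2 Fasn probes are the farthest apart, at -0.12 and -1.45.

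Around the members, other genes of sterol handling were called in both directions. Of 24 listed, 18 were tested, 3 lower and 3 higher, with a median of -0.0057. Over all features, 5.92% were called lower and 5.96% higher. The genes of lysosomal cholesterol export were both higher on all 6 arrays, Npc2 by 0.84 ± 0.22 (adjusted p = 0.00409) and Npc1 by 0.47 ± 0.14 (adjusted p = 0.0161). Insig2, whose protein shares the role of INSIG1, rose by 0.64 ± 0.16 (adjusted p = 0.00603) and was above 0 on 5 arrays. Stard4, a sterol carrier gene that SREBP2 switches on, fell by 0.43 ± 0.045 (adjusted p = 0.0117) and was below 0 on all 6. Osbp, an oxysterol binding protein gene, fell by 0.44 ± 0.25 (adjusted p = 0.0458). Stard4 and Npc1 had 2 probes each, and averaged over them, at -0.25 and 0.25, neither was called. Without culture 3, Stard4 (-0.42), Npc1 (0.52) and Osbp (-0.49) were not called. The Stard4 call also ended without culture 2 (-0.41), and that of Osbp with no background subtraction (-0.44).

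Of 37 further genes of fatty acid and glycerolipid metabolism, 23 were tested, 1 lower and 4 higher, with a median of 0.040. The shares of all features were again 5.92% lower and 5.96% higher. The higher ones included carriers and a regulator of fatty acid storage. Fabp3 and Fabp4, which encode fatty acid carriers, rose by 0.96 ± 0.20 (adjusted p = 0.00206) and 0.58 ± 0.24 (adjusted p = 0.0181). Pparg, a nuclear receptor gene of lipid storage, rose by 0.66 ± 0.075 (adjusted p = 0.00304) and Agpat4 by 0.35 ± 0.12 (adjusted p = 0.0378), and all 4 were above 0 on all 6 arrays. Agpat3, like Agpat4 an acyltransferase gene of phospholipid synthesis, fell by 0.57 ± 0.10 (adjusted p = 0.00578) and was below 0 on 5 arrays. Agpat4 was not called without culture 2 (0.28) or culture 3 (0.38), with median centring (0.31) or with trend and robust variance (0.35). Fabp4 was not called without culture 2 (0.50), nor Agpat3 without culture 3 (-0.58).

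**Figure D5:**
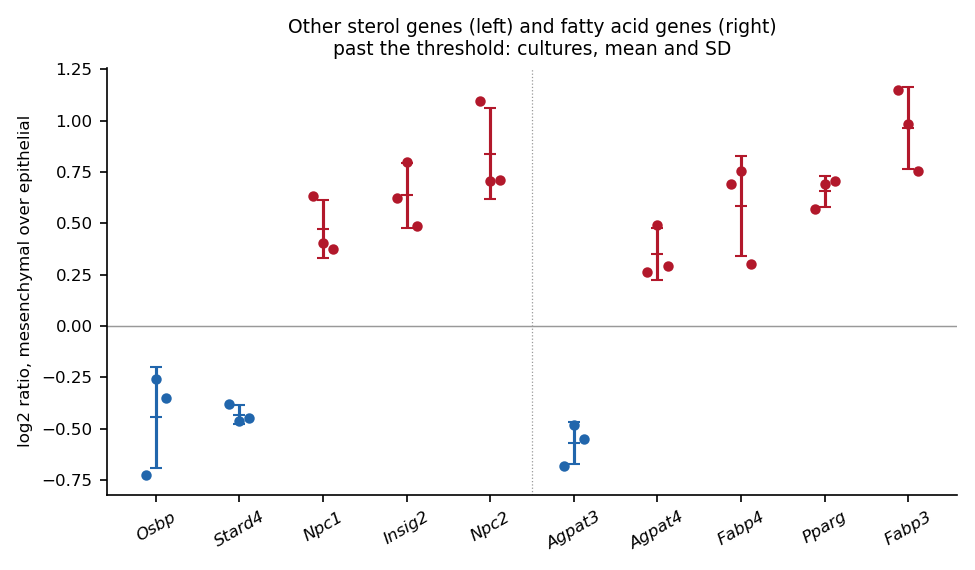
Log2 ratio of mesenchymal over epithelial RNA (y axis) of called genes of sterol handling (left of the dotted line) and of fatty acid and glycerolipid metabolism (right). Points are cultures 1 to 3, horizontal ticks and bars the mean and SD, blue for lower and red for higher. Npc1, Npc2 and Insig2 lie above 0 and Stard4 and Osbp below, and on the right Agpat3 is the gene below 0.

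Among cell type markers, most of those tested for ovarian surface epithelium were lower. Of 10 such markers, 8 were tested, 6 lower and 0 higher, where 5.92% of all features were lower and 5.96% higher. These markers ranged from -2.98 to 0.31, the lowest being the membrane protein gene Gpm6a. Of 11 markers of steroidogenic ovarian cells, which use and make cholesterol, all were tested and 1, Inhba, was lower, at -0.88 ± 0.25. Inhba was above 0 on 3 arrays and below 0 on 3, with a dye effect of -1.63. The other steroidogenic markers lay from -0.25 to 0.095. Neither of the 2 macrophage markers tested was called, at -0.019 and 0.052, and none of 5 adipocyte markers was found on the array. The scanner's flag for a signal well above background was set for all these markers in both RNAs, but it was also set for 18.5% to 81.5% of 162 negative control spots per array and colour, so presence cannot be read from it. The part of cell mixture in the members' values was not tested.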

How the data were processed

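Arrays were read with Agilent Feature Extraction A.7.1.1, per the file headers. Deposited spot mean and local background intensities were the starting point. Processed intensities, background-subtracted and lowess-normalised by that software, and the log10 ratios made from them, also as deposited, were alternatives. The value table that the authors deposited, also in log10, equals, by a correlation over probes of 1, the difference of a culture's 2 arrays divided by 2 and turned to mesenchymal over epithelial. Its medians were 0.00555, -0.0101 and -0.00233. Limma, without settings, is listed in the submitters' processing notes.

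In limma 3.58.1 under R 4.3.3, normexp (offset 50) and loess within arrays gave log2 ratios from the deposited intensities, and arrays were averaged per culture. Log2 intensities were taken after the average intensities of the arrays were quantile-normalised to each other, which leaves the ratios unchanged. Outlier-flagged spots were left out, saturated spots were kept, and a probe had to be well above background for 1 RNA on at least 4 of 6 arrays (43 of 20371 probes removed). At least 2 cultures had to be measured. The brightest probe stood for a gene, and unnamed probes were kept, 17582 features in all. Tests were lmFit and eBayes against 0, and the dye effect, the sum of the unturned log2 ratios divided by 2, was tested alike. Names came from gene IDs, symbols and synonyms matched to a RefSeq table of GRCm38.p6. Array culture 3 with mesenchymal RNA in Cy3 had another annotation, a constant background and 1639 flagged spots, against 61 to 467 on the others.

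Members, lists and tests were chosen with earlier results of these data known. Values on all arrays are given for called members and for Srebf2, Insig1, Hmgcs1, Sqle, Fasn, Scd1 and Scd2, and of the other lists called genes are named. A called gene is not reported here. Replicate numbers pair the RNAs, since both came from 1 culture and shared arrays. The 2 RNAs of a culture deviated together (r = 0.79, 0.78 and 0.94). Shared spots alone can give such values, so they do not test the pairing by culture. Alternatives were other background, normalisation, filter, flag, saturation, probe and variance settings, the value table, separate channels without pairing, and leaving out each culture. The steps were tested on simulated data, where 16 of 100 features given a log2 change of 0.5 were called, and 71 of 100 given 1. A member that was not called can therefore still have changed.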

Additional observations from a re-analysis of the deposited data

How the results depend on the processing

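All 11 called members kept their call with no background subtraction, with the scanner software's processed signals, with median centring, with no filter on dim probes, with outlier-flagged spots kept, with saturated spots left out, with trend and robust variance and with the authors' value table, and Fads1 joined them in 5 of these 8. Averaging a gene's probes ended the call of Sqle and gave 5 lower fatty acid genes, adding Fasn and Fads1 to the 3. Without the pairing of a culture's RNAs (no replicate block), 0 sterol and 0 fatty acid members were lower and 0 higher by limma, while 244 features (1.39%) were called. Of the other pathway genes named, Fabp3 alone stayed called in that fit. Leaving out 1 culture gave 1 to 9 lower sterol members, 2 to 9 lower fatty acid members and 1 to 3 higher members, and 11 to 18 members with a dye effect past the threshold. The cause of these shifts was not tested. Some uncalled members near 0 turned sign. Averaged over probes, Lss was at -0.23, Nsdhl at 0.0039 and Hsd17b7 at -0.019, and with saturated spots left out Hsd17b7 was at -0.026. Dhcr7 was at -0.0065 with processed signals, -0.041 with median centring and -0.0066 with the value table. Leaving out 1 culture gave -0.12 to 0.27 for Lss, -0.026 to 0.080 for Hsd17b7, -0.095 to 0.13 for Dhcr7, -0.14 to 0.030 for Insig1, -0.24 to 0.0094 for Scd1 and -0.072 to 0.0021 for Scd2. No outlier test was made on the 3 cultures. Saturation limits Scd2, Fdps, Msmo1 and Fads1.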
